A study of Saccharomyces cerevisiae with 7 samples.

Results

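The genes described here are 40 genes of meiosis and sporulation in budding yeast, Saccharomyces cerevisiae, chosen by name from a list that runs from the regulators that start meiosis to the enzymes that build the spore wall. All 40 were found on the array, each by 1 probe set, among 5498 probe sets that are named to 5449 genes. The cells were haploid, so the question is which of these genes read near background in growing a cells and which differed without HMT1, which encodes the enzyme that makes most methylated arginine in this yeast. RNA from 4 cultures of the wild type and 3 of the HMT1 deletion strain, labelled as biological replicates, was measured on 7 Affymetrix Yeast Genome 2.0 arrays, a separate array for each culture. Whether the cultures of a strain came from separate colonies is not stated, and p-values then measure only the spread between these cultures. The wild type was BY4741, a haploid of mating type a with the alleles his3∆1, leu2∆0, met15∆0 and ura3∆0. The deletion strain was hmt1∆:: KANMX4 in the same background, so both groups share those marker alleles. The study's labels name rich, phosphate-replete and phosphate-depleted media, and the medium of the array cultures is not stated.

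Meiosis in yeast is a programme of diploid a/alpha cells that starve. The a1-alpha2 repressor of diploids shuts off RME1, the transcription factor Ime1 is made, and Ime1 turns the repressor Ume6 into an activator of the early genes, which pair and recombine the chromosomes. Ndt80 then switches on the middle genes, which carry the cells through the divisions and build the prospore membrane and the spore wall. In growing haploid cells Ume6 with the Rpd3-Sin3 deacetylase holds the early genes off, and Sum1 with Rfm1 and Hst1 holds many middle genes off.

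The values are log2 expression made by RMA, a method that corrects background, sets the distribution of all arrays alike and summarises the probes of a probe set. Median log2 expression was 9.91 to 9.94 on the 7 arrays. All differences below are deletion minus wild type on this scale, with the standard error (SE) of a limma fit over all 5498 probe sets. A gene passed the test at an adjusted p (Benjamini-Hochberg) under 0.05. Precision is limited by there being only 7 arrays. HMT1 itself averaged 11.84 ± 0.22 (SD, n = 4) over the wild-type arrays and 4.77 ± 0.26 (SD, n = 3) over the deletion arrays. The latter lay between the highest (5.13) and second highest (4.20) means of control probe sets without a yeast target. HMT1 was at least 104-fold lower in the deletion strain. This bound puts the highest control of each deletion array in place of HMT1 where HMT1 read lower.

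Many of the 40 genes read no higher than probes that have no target in yeast. The means of 23 such controls lay between 3.34 and 5.13, and the highest mean was taken as the background limit. By this limit 15 of the 40 genes (37.5%) had a mean over the 7 arrays at or under background, against 3.38% of all probe sets tested. Among them were MEI5 and SAE3, partners that load the strand exchange protein Dmc1, HOP2, an accessory of homologous pairing, SPR28, a septin of sporulating cells, and SPS2, a sporulation-induced gene. The limit rests on a single control, and with the second highest control mean (4.20) in its place 7 genes were at or under it. REC114 lay just inside the limit, at 5.13, and REC8 was the next above it, at 5.49. Probe sets differ in brightness at equal amounts of RNA, so these levels rank no gene above another.

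**Figure D1:**
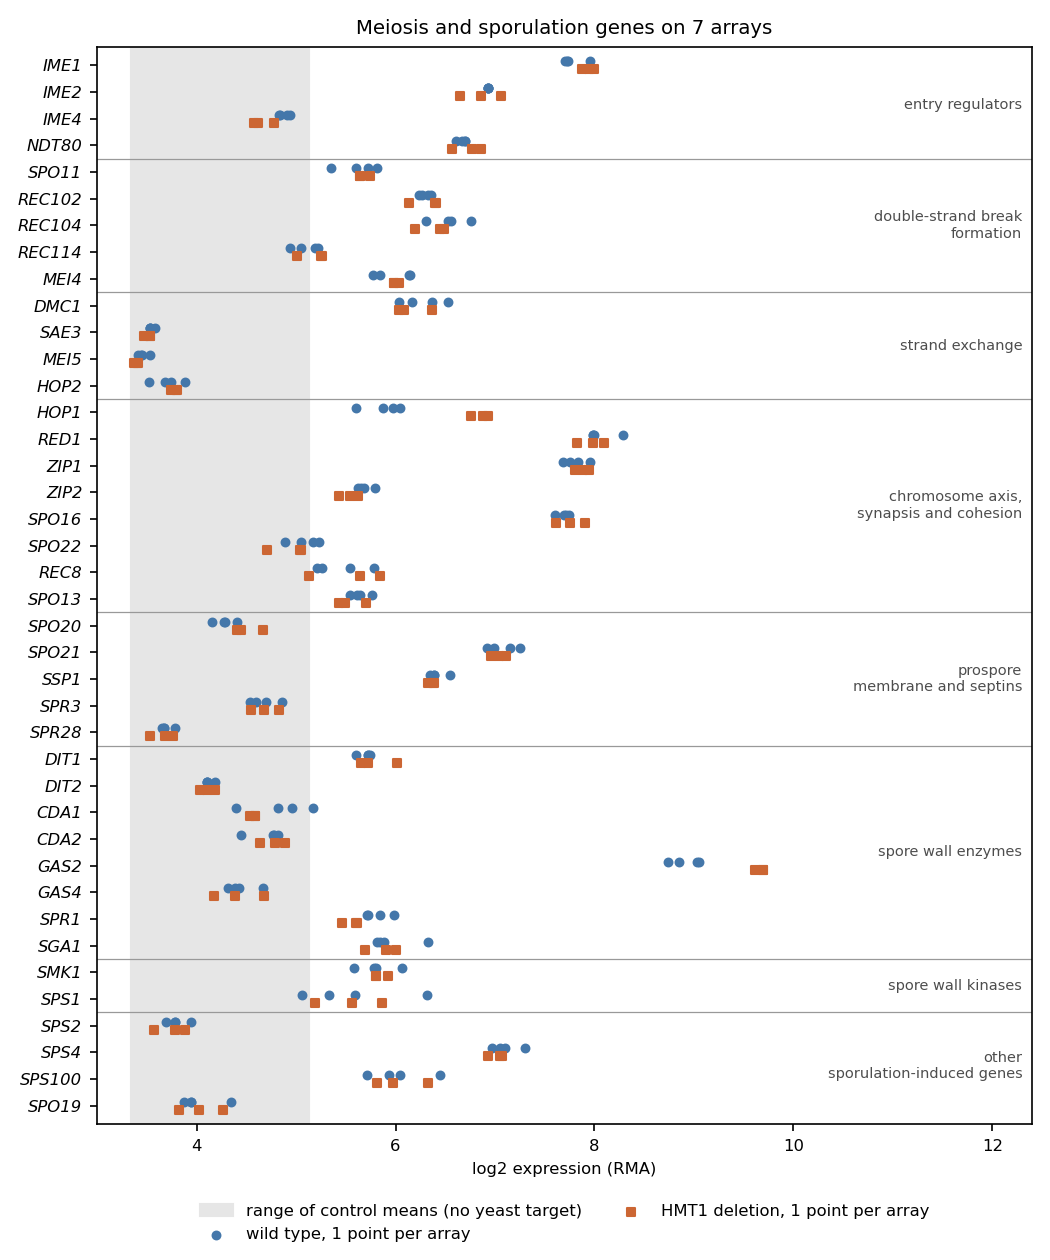
Log2 expression (RMA, horizontal axis) of the 40 genes on each array, with wild-type arrays as circles, deletion arrays as squares and the range of control means (3.34 to 5.13) shaded. The groups separate widely for HOP1 and GAS2 and overlap for most other genes.

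Markers of mating type were checked in the same arrays. The 7 a-specific genes lay between 8.19 and 13.5 on every array, among them STE2, the receptor for alpha factor, at means of 13.22 and 13.22 in the wild type and the deletion strain. Of the 5 alpha-specific genes measured, MF(ALPHA)1, the main alpha factor gene, was at or under the background limit, at 3.95 to 4.14 over the 7 arrays. The other alpha-specific genes read above the limit, and the 5 genes together spanned 3.95 to 10.0. The 12 haploid-specific genes lay between 7.75 and 11.7 on every array, and none of these 3 marker lists held a gene past the test. SAG1, the alpha-agglutinin gene, was lower in the deletion strain without overlap, at 8.77 to 8.87 against 8.87 to 9.15, and did not pass (limma adjusted p = 0.796). Some mating genes split the wild-type arrays by pair. FUS1, a cell fusion gene induced by pheromone, read 8.50 and 8.62 in wild-type replicates 1 and 3 and 10.77 and 10.27 in replicates 2 and 4, with the deletion arrays between them at 9.77 to 9.93. The a-specific genes ASG7 and AGA2 split the same way, ASG7 at 8.19 and 8.52 against 10.17 and 10.01 and AGA2 at 10.54 and 10.49 against 11.76 and 12.04, so their group means hide a spread within the wild type. RME1, the haploid repressor of IME1, was at 10.24, 10.19, 10.51 and 10.46 in the wild type and at 10.52, 10.44 and 10.42 in the deletion strain.

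HOP1 was the gene of the list with the largest difference. It encodes a protein of the meiotic chromosome axis that directs recombination to the homologous chromosome, and it lies on chromosome IX as YIL072W. Its wild-type arrays read 5.98, 5.60, 5.88 and 6.05, and its deletion arrays read 6.93, 6.88 and 6.76. Every deletion array lay above every wild-type array, with a gap of 0.71 between the groups, while the wild-type arrays spanned 0.45 and the deletion arrays 0.17. HOP1 rose by 0.98 (SE 0.11, limma adjusted p = 0.0246), which is 1.98-fold with a 95% interval of 1.66 to 2.36. The wild-type arrays lay not far above the background limit of 5.13, where RMA compresses differences. This fold is therefore one of array values and may differ from that of the RNA. Of the 5498 probe sets, 2 were higher by more. HOP1 and GAS2 were picked from earlier results on these arrays as genes that rise in the deletion strain, so their separation and p-values here are a description and no independent support. In a culture, more cells with the transcript and more transcript per cell cannot be told apart.

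The call of HOP1 depended on which arrays were used and how they were processed, while its difference varied little. Without wild-type replicate 1 or 2 it passed, and without wild-type replicate 3 or 4 or any deletion array it did not, with adjusted p from 0.0133 to 0.170 and differences from 0.89 to 1.04 over the 7 fits. With all 7 arrays it missed the threshold under repeated quantile normalization (limma adjusted p = 0.0511). Across all 17 alternatives that measured it, the difference lay between 0.87 and 1.04 and passed in 9.

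The genes around HOP1 were compared next. SPO22, whose product acts in synapsis and crossing over, is the next gene on the left and is read from the other strand by its name (YIL073C), so the starts of both genes face the same stretch. SPO22 was at 5.05, 5.23, 5.17 and 4.89 in the wild type and at 4.71, 5.05 and 5.04 in the deletion strain, both at or near the background limit, and did not pass (limma adjusted p = 0.840). PCI8, the next gene on the right, differed by 0.01 (SE 0.09), and SER33, which lies beyond SPO22, by -0.10 (SE 0.09). None of the 5 other genes within 3 places of HOP1 that are named here, RPN2, SER33, PCI8, MAM33 and RPS24B, passed the test.

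The other genes of the axis and the synaptonemal complex did not pass either. RED1, the axis protein that Hop1 binds, read 7.99, 8.28, 7.99 and 7.99 in the wild type and 7.98, 7.82 and 8.09 in the deletion strain, and the groups overlapped. Its difference was -0.10 (SE 0.10), with a 95% interval of -0.33 to 0.13. ZIP1, which spans the central region of the complex, differed by 0.07 (SE 0.08), and REC8, the meiotic cohesin, by 0.09 (SE 0.20). ZIP2, which starts synapsis, was at -0.16 (SE 0.07) and SPO16, its partner in crossing over, at 0.07 (SE 0.08). SPO13, which keeps sister centromeres together in the first division, was at -0.10 (SE 0.09). Among genes outside the list, MEK1, the kinase that acts downstream of Hop1, was at or under the background limit on every array, at 3.90 to 4.05. PCH2, the ATPase that removes Hop1 from synapsed chromosomes, was at 4.57 to 5.05 and so under it too.

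**Figure D2:**
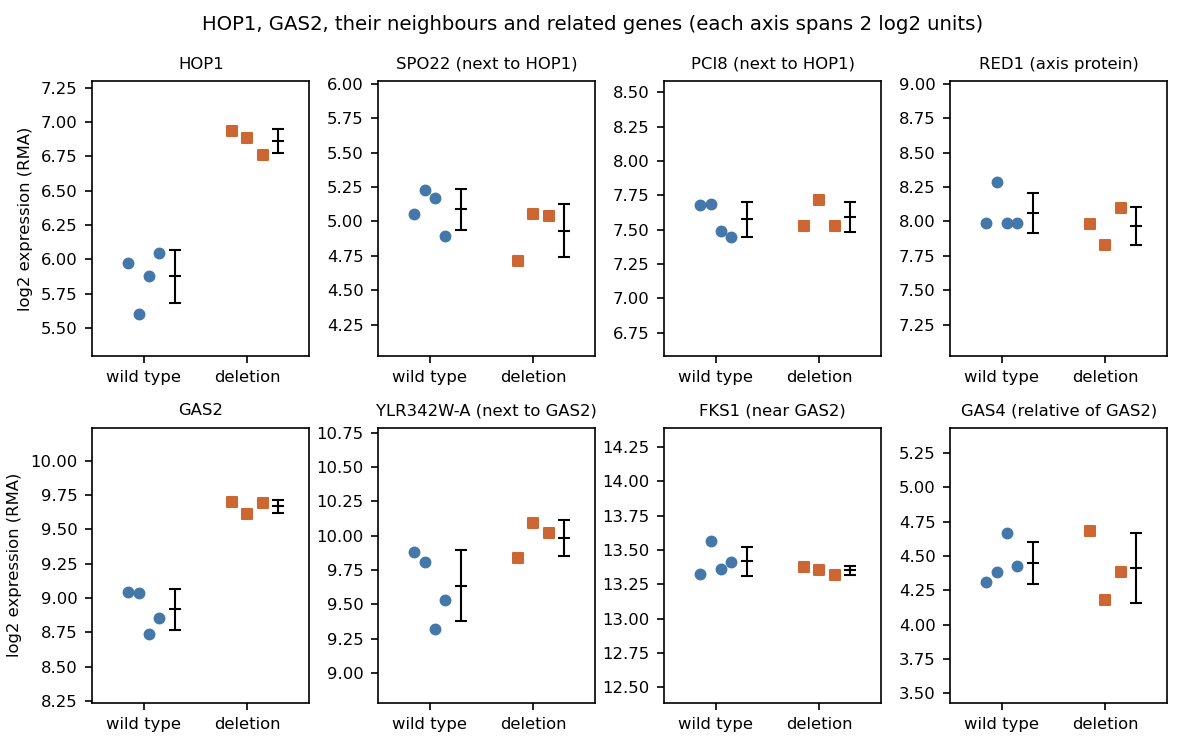
Log2 expression (RMA, vertical axis) on each wild-type (circle) and deletion (square) array for HOP1, GAS2, genes next to them and related genes, with the mean and SD of each group (n = 4 and n = 3) at the right of its points and 2 log2 units on each axis. HOP1 (gap 0.71) and GAS2 (gap 0.57) separate by group, while SPO22, PCI8, RED1, FKS1 and GAS4 overlap.

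GAS2 was the second gene of the list past the test. It encodes a glucan-remodelling enzyme that, with Gas4, builds the glucan layer of the spore wall, and it lies on chromosome XII as YLR343W. The wild-type arrays read 9.05, 9.03, 8.74 and 8.85 and the deletion arrays 9.70, 9.61 and 9.69. The groups did not overlap, with a gap of 0.57, and the deletion arrays spanned only 0.087. GAS2 rose by 0.75 (SE 0.09, limma adjusted p = 0.0278), which is 1.68-fold with a 95% interval of 1.46 to 1.93. Of all probe sets, 10 were higher by more. GAS2 lost its call without wild-type replicate 3 or 4 or any deletion array, with differences from 0.69 to 0.79 and adjusted p from 0.0471 to 0.191 over the 7 fits.

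The genes of the same family that work in growing cells were bright and did not pass. GAS1, the main glucan-remodelling enzyme of the vegetative wall, was at -0.06 (SE 0.08), GAS3 at -0.06 (SE 0.09) and GAS5 at -0.13 (SE 0.10). GAS4, which acts with GAS2 in spores, read 4.31, 4.38, 4.66 and 4.43 in the wild type and 4.68, 4.18 and 4.38 in the deletion strain, at or under the background limit in both. The gene listed to the left of GAS2, YLR342W-A, was 0.35 higher (SE 0.14) without passing (limma adjusted p = 0.742), with overlapping groups. Beyond it, FKS1, a catalytic subunit of glucan synthase, was at -0.07 (SE 0.07), and on the other side RPL26A, a ribosomal protein gene, was at 0.01 (SE 0.05) and YLR345W at 0.30 (SE 0.15, limma adjusted p = 0.796). SPO77, a spore formation gene beyond FKS1, was under the background limit on every array, at 4.45 to 4.86.

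The other spore wall enzymes showed no such difference. SPR1, a glucanase of sporulating cells, read 5.98, 5.84, 5.72 and 5.72 in the wild type and 5.46, 5.61 and 5.60 in the deletion strain. The groups did not overlap, and its difference of -0.26 (SE 0.08) did not pass (limma adjusted p = 0.582). DIT1 and DIT2, which make the dityrosine of the outermost layer, had means of 5.70 ± 0.07 and 4.13 ± 0.04 (SD, n = 4) in the wild type and 5.80 ± 0.19 and 4.11 ± 0.07 (SD, n = 3) in the deletion strain. CDA1 and CDA2, the chitin deacetylases that make chitosan, lay at or under the background limit by their means, and single arrays of CDA1 ranged from 4.40 to 5.17. SGA1, the sporulation glucoamylase, differed by -0.10 (SE 0.14).

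The regulators that open the programme were measured on both sides of the limit. IME1, the master regulator, read 7.70, 7.73, 7.95 and 7.72 in the wild type and 8.00, 7.87 and 7.95 in the deletion strain. Wild-type replicate 3 fell among the deletion arrays, and the difference of 0.16 (SE 0.08) did not pass (limma adjusted p = 0.779), with a 95% interval of -0.02 to 0.34. IME2, the kinase that Ime1 induces, read 6.86, 6.65 and 7.06 in the deletion strain. All 4 wild-type arrays held the same IME2 value, 6.93, so they give no usable spread. The IME2 difference was -0.07 (SE 0.09). NDT80, the switch to the middle genes, was at 0.07 (SE 0.08), with an interval of -0.11 to 0.25. IME4, the RNA methyltransferase of meiosis, read 4.91, 4.83, 4.84 and 4.94 in the wild type and 4.62, 4.57 and 4.78 in the deletion strain. The IME4 groups did not overlap, but both lie under the background limit and the gene did not pass (limma adjusted p = 0.562).

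The genes that break and repair DNA in meiosis did not pass, and their groups overlapped. SPO11, which cuts the DNA, read 5.35, 5.72, 5.60 and 5.81 in the wild type and 5.64, 5.64 and 5.74 in the deletion strain, and differed by 0.05 (SE 0.11). Its accessory genes REC102, REC104, REC114 and MEI4 lay between -0.16 and 0.07. DMC1, the meiotic recombinase, was at -0.11 (SE 0.13). Its helpers SAE3, MEI5 and HOP2 read 3.38 to 3.89 over all arrays, within the range of the controls.

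The genes of the prospore membrane and the remaining kinases and sporulation genes did not pass. SPO20, a fusion protein of the prospore membrane, read 4.16, 4.28, 4.28 and 4.41 in the wild type and 4.67, 4.45 and 4.41 in the deletion strain, under the limit in both. SPO21 and SSP1, which cap the growing membrane, were at -0.04 (SE 0.09) and -0.05 (SE 0.06), and the septin SPR3 had means of 4.67 and 4.69. SMK1, the kinase that orders spore wall assembly, was at 0.04 (SE 0.11). SPS1, a kinase of the same stage, had the widest spread of the list: its wild-type arrays read 6.31, 5.06, 5.33 and 5.60 and its deletion arrays 5.57, 5.19 and 5.86. The 95% interval of its difference ran from -0.71 to 0.64, so the values are compatible with a fall or a rise within this range. SPS4 and SPS100, induced in the middle and late stages, were at -0.09 (SE 0.09) and 0.01 (SE 0.18), while SPS2 and SPO19 read at or under the limit by their means.

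Over the whole list, 2 of the 40 genes passed the test, both higher, where 0.200% of all probe sets passed and 0.0909% passed as higher. The 2 were HOP1 and GAS2, picked from earlier results on these arrays as rising, so this count is no independent support for the list. Of the other 38 genes, 0 passed. The groups did not overlap in 4 of the 40 genes (10.0%), HOP1 and GAS2 higher and IME4 and SPR1 lower in the deletion strain, against 7.64% of all probe sets (3.15% higher and 4.49% lower). Without the picked genes HOP1 and GAS2 the share was 2 of 38 (5.26%), and IME4 lay under the background limit. The median difference was -0.026 over the 40 genes and 0.0065 over all probe sets, with 19 genes higher and 21 lower. Without HOP1 and GAS2, the differences of the other 38 genes ran from -0.26 to 0.23, with a median size of 0.067, against 0.073 over all probe sets. For 35 of these 38 genes the 95% interval lay within 0.5 of no difference, the exceptions being REC8, CDA1 and SPS1. Of the 23 of them above the background limit, 21 had such an interval. For genes at or under the limit a narrow interval does not show unchanged RNA, since RMA compresses differences of dim probe sets. Of the 25 genes above the background limit, 13 were higher and 12 lower, and the 2 that passed were HOP1 and GAS2.

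**Figure D3:**
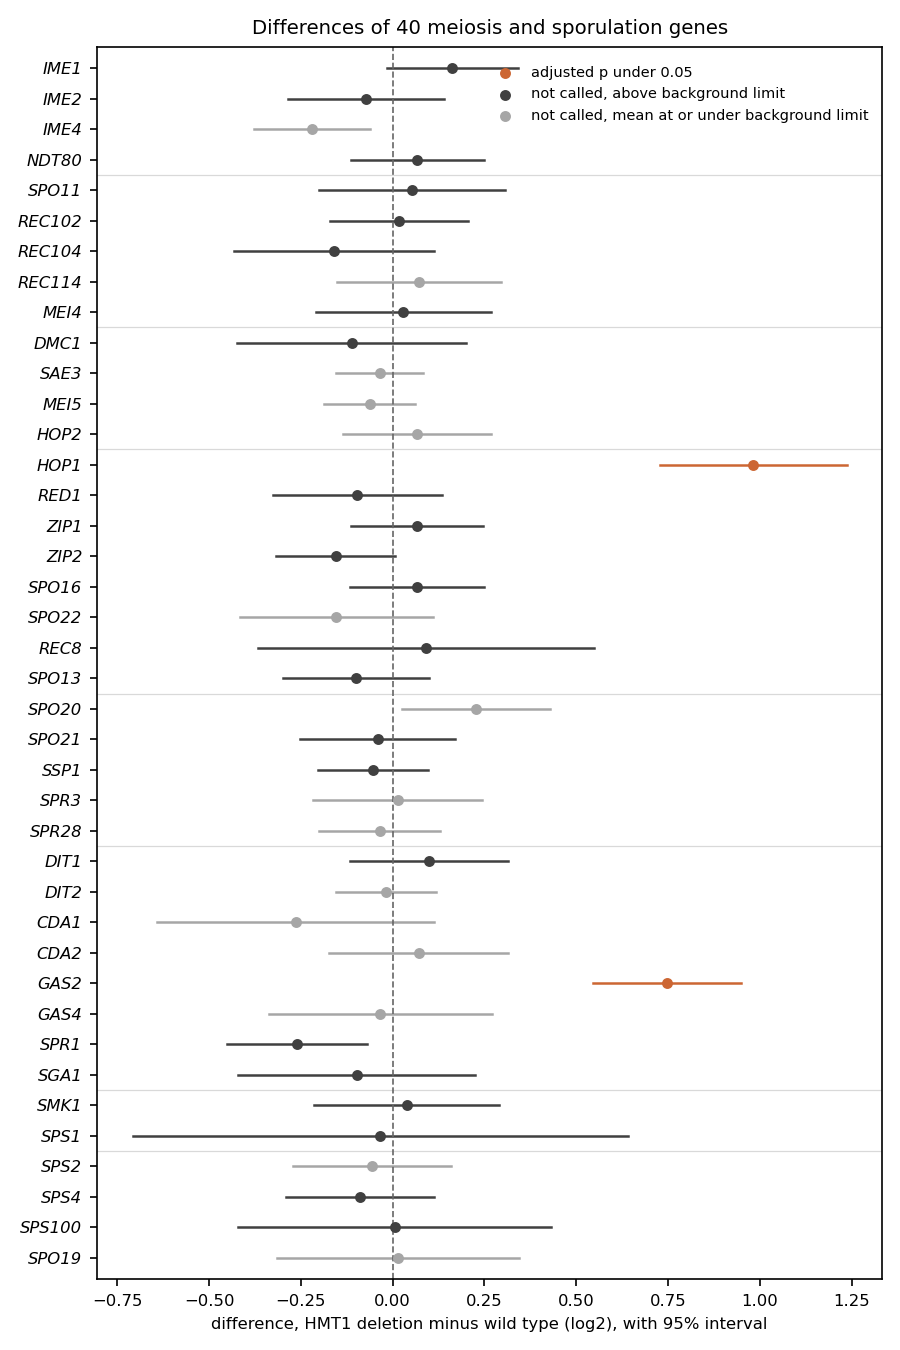
Difference in log2 expression, deletion minus wild type, with its 95% interval (line) for each of the 40 genes, ordered by role. HOP1 (0.98) and GAS2 (0.75) stand to the right, and the other 38 genes lie between -0.26 and 0.23.

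Genes of meiosis and sporulation outside the list were compared in the same fit. Of 24 further genes of recombination and chromosome structure and 37 of spore formation, none passed in limma, and 3 of these 61 genes (4.92%) had an unadjusted p under 0.05, against 6.64% of all probe sets. The groups did not overlap in the same 3 genes, against 7.64% of all probe sets. All 3 were spore formation genes that read higher in the deletion strain, where 3.15% of all probe sets were higher without overlap. Of the 61 genes, 0 were lower without overlap, against 4.49% of all probe sets. SPO1, a phospholipase-like protein of meiosis, read 6.28, 6.33, 6.47 and 6.02 in the wild type and 6.68, 6.64 and 6.67 in the deletion strain, a difference of 0.39 (SE 0.10, limma adjusted p = 0.429). SHC1, a chitin synthase activator of sporulating cells, was at 0.35 (SE 0.14) and SPO73, a prospore membrane protein, at 0.23 (SE 0.08), with adjusted p of 0.742 and 0.698. The median differences of the recombination and the spore formation genes were -0.0065 and 0.020.

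Wild-type arrays differed among themselves for some of these genes. CRR1, a putative glycosidase of the spore wall, read 7.15, 6.30, 7.79 and 5.84 in the wild type and 7.62, 7.22 and 7.59 in the deletion strain. Its difference of 0.71 (SE 0.42) had an interval from -0.27 to 1.69. NDJ1, a telomere protein of meiosis, read 6.22 and 6.72 in wild-type replicates 1 and 3 and 7.99 and 7.50 in replicates 2 and 4, and the deletion arrays lay between them, at 6.92 to 7.24. Among the recombination genes, those with the smallest p were HFM1, a helicase of crossing over, at -0.15 (SE 0.07), MSH4, a crossover protein, at 0.14 (SE 0.07), and MPS3, a nuclear envelope protein, at -0.15 (SE 0.08). HFM1, REC107 and AMA1 carry introns that are removed with the help of the meiotic factor Mer1, and REC107 and AMA1 were at 0.11 (SE 0.12) and 0.06 (SE 0.12). Probe positions were not used here, so spliced and unspliced transcripts are not told apart.

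The repressors that keep these genes off in haploid growth did not differ past the test. UME6 was at 0.10 (SE 0.09), SIN3 at 0.01 (SE 0.09) and RPD3 at 0.03 (SE 0.07). SUM1 was at 0.03 (SE 0.06), RFM1 at 0.02 (SE 0.09) and HST1 at -0.03 (SE 0.06). TUP1, the corepressor that acts on DIT1 and DIT2, was at 0.07 (SE 0.07) and RME1 at 0.11 (SE 0.09). Of the 32 regulators listed, 1 passed, where 0.200% of all probe sets passed and 0.109% passed as lower. SWI1, part of the SWI/SNF remodeller of chromatin, read 9.95, 9.80, 9.78 and 9.81 in the wild type and 9.09, 8.86 and 9.28 in the deletion strain. It fell by 0.76 (SE 0.10, limma adjusted p = 0.0494). SWI1 was put on the list with this change known, so its call says nothing of the regulators as a list. The call of SWI1 ended whichever array was left out. SIF2, a subunit of the Set3 repressor complex, was at 0.19 (SE 0.07) and RIM11, the kinase that links Ime1 to Ume6, at 0.25 (SE 0.11), and neither passed (adjusted p of 0.719 and 0.742).

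**Figure D4:**
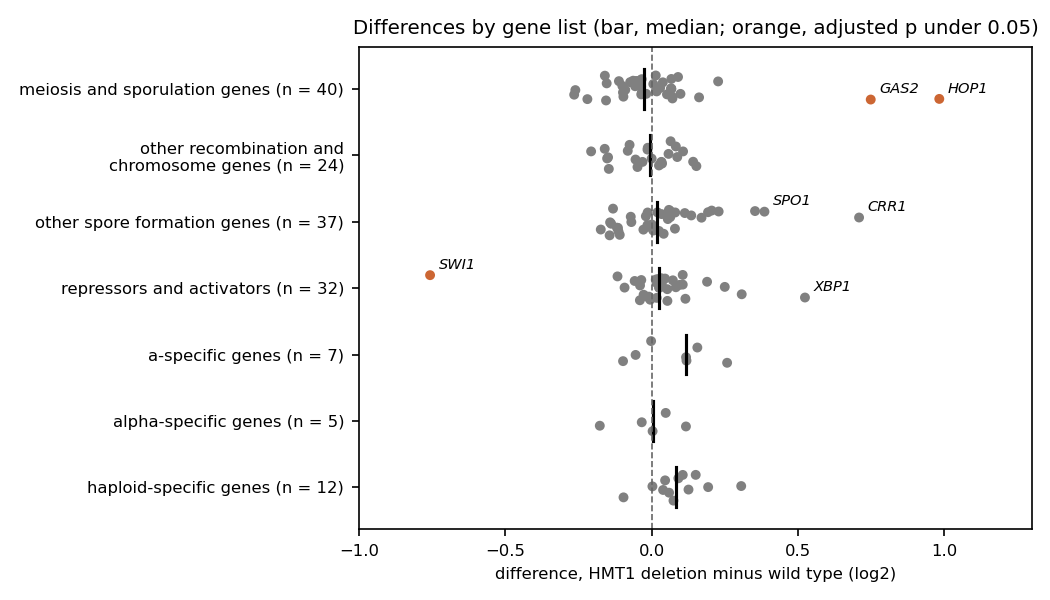
Difference in log2 expression, deletion minus wild type (horizontal axis), of each gene in 7 lists, 1 point per gene, spread vertically for display, with the list's median as a bar. HOP1 and GAS2 (higher) and SWI1 (lower) are the genes past the test, while CRR1, SPO1 and XBP1 are named for their size without passing.

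The arrays themselves differed slightly at the dim end of the scale, where most of these genes lie. Deletion replicate 2 was the lowest of the 3 deletion arrays in 23 of the 40 genes and in 21 of the 23 controls. The median deviation of the 40 genes from their mean over the arrays was -0.073 there and 0.061 in deletion replicate 1, and that of the controls was -0.086 and 0.084. In deletion replicate 2 HOP1 read 6.88, between the other deletion arrays, and GAS2 read 9.61, the lowest of them. Without that array the differences of HOP1 and GAS2 were 0.97 and 0.78. The part of this array difference in the values of the other 38 genes was not tested.

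**Figure D5:**
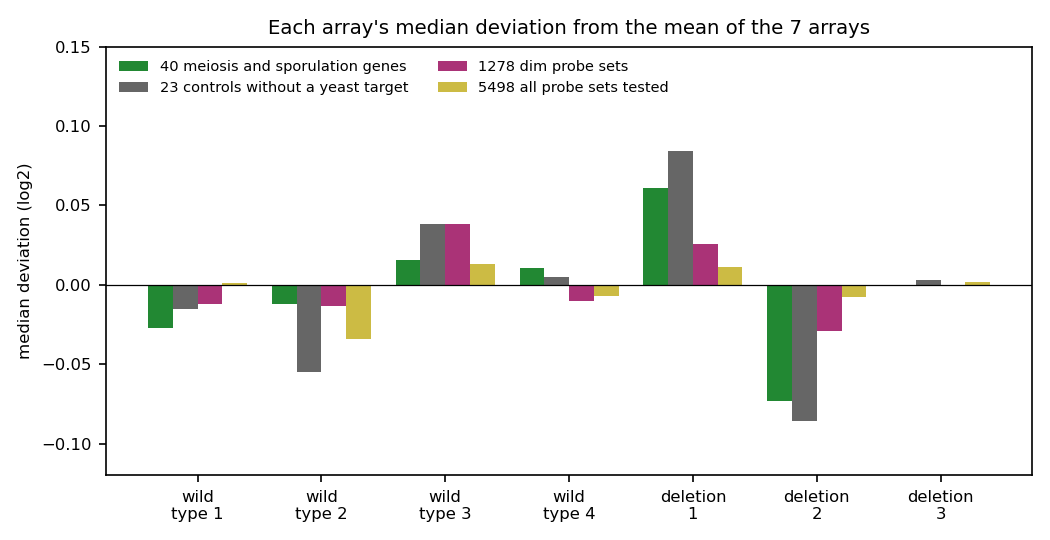
Median deviation (log2, vertical axis) of each array from the mean of the 7 arrays for the 40 genes, the 23 controls without a yeast target, 1278 dim probe sets and all 5498 probe sets tested. Deletion replicate 2 is lowest for the 40 genes (-0.073) and for the controls (-0.086).

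The wild-type arrays fall into pairs by 5 reporter probe sets that are named to no gene, which read 3.18 to 4.44 in replicates 1 and 3 and 6.16 to 12.6 on the other 5 arrays. In 7 of the 40 genes (17.5%) replicates 2 and 4 did not overlap replicates 1 and 3, against 35.6% of all probe sets. With only 2 arrays in each pair such separation often arises by chance, so neither share is read as a difference between the pairs. HOP1 was 1.03 higher than replicates 2 and 4 and 0.93 higher than replicates 1 and 3, and GAS2 was 0.72 and 0.77 higher. Against replicates 2 and 4 alone neither gene passed (limma adjusted p = 0.0782 and 0.0561), and against replicates 1 and 3 alone HOP1 did. In 12 of the 40 genes the difference had opposite signs against the pairs, among them SPS1 at 0.21 and -0.28 and SPS100 at 0.22 and -0.20, neither of which passed.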

How the data were processed

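The deposited values are log2 expression from RMA, run by the authors with affy 1.52.0, per the submitters' processing notes. For the authors' test, filters and probe set definition the sources used here give nothing. RMA sets all arrays to 1 distribution, so a change in total messenger RNA cannot be seen, and differences of dim probe sets are compressed. Columns were matched to samples, and samples to groups, by the labels. The platform annotation named the probe sets. RefSeq's R64 gene table updated 12 of the symbols and also gave locus names and neighbours. No genome build is named, so no coordinates are given, and 402 unnamed probe sets were left out.

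The groups were compared by limma 3.58.1 (lmFit and eBayes, R 4.3.3) without covariates, two-sided, adjusted over 5498 probe sets. The procedure was tested on simulated data. Intervals are 95% intervals of this fit. Alternatives were leaving out each array, either wild-type pair, a replicate block, median centring, repeated quantile normalization, leaving out dim probe sets, an intensity trend, robust variances, array weights, averaged probe sets and other background limits. Leaving out probe sets at background was chosen after seeing the data. The plots were made in Python 3.11.15 by matplotlib 3.10.9.

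The members and lists were chosen with earlier results of these data known. The rule named all 40 genes, HMT1, the neighbours of HOP1 and GAS2, and from the other lists every called gene, and in a list with none called the 3 of lowest p, while the lists of mating genes are given by range. Other genes (MEK1, PCH2, REC107, AMA1, NDJ1, CRR1, XBP1, UME6, SIN3, RPD3, SUM1, RFM1, HST1, TUP1, RME1, SIF2, RIM11, STE2, SAG1, FUS1, ASG7, AGA2, MF(ALPHA)1 and the GAS family) were named for their role or spread after their values were seen. The 26, 38 and 33 names in the lists of recombination, spore formation and regulators matched 24, 37 and 32 measured genes. Some names are synonyms (ZIP3 of CST9, ADY1 of PFS1, UME3 of SSN8), so not every shortfall is an unmeasured gene. Same-numbered cultures of the strains did not deviate together (correlations over probe sets of -0.035, 0.17 and -0.51), so the numbers were not taken as pairs.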

Additional observations from a re-analysis of the deposited data

Results flagged for a closer look

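In 9 of the 40 genes (22.5%) 1 wild-type array stood apart from the other 3 by Dixon's criterion, which chance alone meets in about 1 of 20 groups. Over all probe sets tested the share was 9.20%. Wild-type replicate 4 was the array for SAE3 (3.59, the others 3.53 to 3.54), SPR28 (3.78, the others 3.65 to 3.67), DIT1 (5.60, the others 5.72 to 5.74) and DIT2 (4.19, the others 4.10 to 4.11). Wild-type replicate 3 was the array for IME1 (7.95, the others 7.70 to 7.73) and SGA1 (6.33, the others 5.81 to 5.88). Wild-type replicate 2 was the array for RED1 (8.28, the others all near 7.99) and CDA2 (4.45, the others 4.76 to 4.82), and replicate 1 for SPO19 (4.35, the others 3.87 to 3.94). HOP1 and GAS2 were not among these genes.

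Of the other genes named, MSH4 stood apart in wild-type replicate 1 (6.41, the others 6.50 to 6.51), as did SWI1 (9.95, the others 9.78 to 9.81) and HST1 (11.45, the others all at 11.40). Wild-type replicate 2 was high for MPS3 (9.23, the others 8.95 to 8.98) and PCH2 (5.05, the others 4.57 to 4.65) and low for MF(ALPHA)1 (3.95, the others 4.11 to 4.12). Wild-type replicate 3 was low for RPL26A (13.76, the others all at 13.78).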

How the results depend on the processing

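HOP1 and GAS2 were higher in the deletion strain under every alternative that measured them, and each passed the test in 9 of them. Adjusted p ran from 0.00298 to 0.235 over 17 alternatives for HOP1 and from 0.000839 to 0.289 over 18 for GAS2. Leaving out single arrays gave 1 to 9 probe sets past the test (11 with all arrays), 0 to 2 of the 40 genes, 0 of the other meiosis genes and regulators, a median of -0.046 to 0.032 over the 40 genes, and differences of 0.89 to 1.04 for HOP1 and 0.69 to 0.79 for GAS2. In limma, unadjusted p was then under 0.05 in 192 to 700 probe sets. With wild-type replicates 2 and 4 alone 0 of the 40 genes passed (HOP1 1.03, GAS2 0.72), while replicates 1 and 3 gave 7 calls, with 1 in the list (GAS2 0.77, not passing). Neither pair gave a call among the other meiosis genes (0). The replicate block left 1 probe set in all, 0 of the 40 genes and 0 of the other genes (HOP1 1.04, GAS2 0.73). Repeated quantile normalization left 1 of the 40 genes, GAS2, and gave a median of 0.0088, while HOP1 missed the threshold (0.96, limma adjusted p = 0.0511). Leaving out dim probe sets removed HOP1, HMT1 and every other gene of the list except GAS2, and 0 probe sets passed (240 at an unadjusted p under 0.05; GAS2 0.75, limma adjusted p = 0.0507), with 0 calls in the list and 0 among the other genes. Its median over the list was not run, since 1 gene was left. Array weights gave 59 probe sets, 2 calls among the other genes and a median of 0.018, averaging the probe sets of a gene gave 5 and 0, and leaving out probe sets at background moved the median to 0.0058. Of the other 38 genes, none passed under any alternative. Genes at or under background numbered 7 with the second highest control mean as the limit, 5 with the median control and 39 with the 25th percentile of all probe sets. The signal over background limits what can be said of the 15 genes at or under it.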
